A study of Homo sapiens with 6 samples.

Results

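Interferon-stimulated genes are the genes that cells switch on when interferon binds its receptors. The genes followed here are a list of names, 46 of the 34486 genes to which transcripts could be assigned. All 46 were found in the transcript tables, and 42 had enough reads to be tested. IFI27, RSAD2, PSMB9 and EPSTI1 did not. The question was whether their RNA levels differed after silencing of PDCD4, a tumour suppressor that binds RNA and inhibits eIF4A, a helicase of translation initiation.

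The cells were MCF10A, a non-tumorigenic, immortalised human breast epithelial line of wild-type genotype that was grown with horse serum, epidermal growth factor, insulin, hydrocortisone and cholera toxin. Total RNA was sequenced. In 3 libraries the cells had been reverse-transfected with an siRNA against PDCD4 (siPDCD4), and in 3 libraries with a control siRNA (siCT), each at 10 nM for 48 h with a change of medium after 6 h. All 6 libraries thus come from cells that received double-stranded RNA, which can itself induce these genes. No untransfected cells were analysed here, so the level set by transfection and the level of untouched cells cannot be told apart. A difference between the groups could likewise come from the loss of PDCD4 or from the sequence of either siRNA, and these cannot be told apart either. The labels do not say whether the replicates were separate cultures, and the p-values therefore reflect only how these libraries vary, a variation that may be technical.

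Interferons of type I signal through the receptor chains IFNAR1 and IFNAR2 and the kinases JAK1 and TYK2, which activate STAT2 among other factors. STAT2 and IRF9 are part of the complex ISGF3, which binds the interferon-stimulated response element (ISRE) in promoters. The signal of interferon gamma reaches promoters through the GAS element. The cytosolic sensors RIG-I and MDA5, the latter encoded by IFIH1, recognise double-stranded RNA and lead to the production of interferon. Epithelial cells use the same pathway, and they keep some of these genes, such as B2M, expressed without any infection.

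The totals of estimated counts lay between 13410441 and 21828931 per library. PDCD4 (chromosome 10, 110871795 to 110900006, GRCh38) stood at 90.4, 89.0 and 61.1 CPM (counts scaled to library size) in siCT replicates 1 to 3 and at 9.15, 7.43 and 8.62 CPM in siPDCD4 replicates 1 to 3. Its log2 fold change was -3.25 ± 0.17 (SE; adjusted p = 2.15e-05, edgeR). Over all 13047 genes tested, 22 were higher and 34 lower at a false discovery rate (FDR) of 5%. siCT replicate 3 stood apart from the other libraries at 30.6 on the first principal component, against 8.65 or less elsewhere, and had the lowest share of counts in protein-coding genes (76.2%, against 78.7% to 86.4%). Mammary epithelial markers were high in every library, with KRT5, a keratin of basal cells, between 1916 and 2601 CPM. Of 12 leukocyte markers 6 were at 0 in all libraries, among them CD3E, MS4A1 and the plasmacytoid dendritic cell gene LILRA4, and PTPRC did not exceed 0.485 CPM. The summed level of the leukocyte list was 11.1 to 13.0 CPM in siCT and 12.7 to 16.9 CPM in siPDCD4. The myeloid genes CD14 (6.51 to 12.4 CPM), CSF1R (1.11 to 3.31) and LYZ (1.26 to 2.59) were not at 0. COL3A1, PDGFRA and CDH5, which define fibroblasts and endothelium, did not exceed 0.146 CPM, whereas DCN lay between 11.7 and 41.9 CPM, and the summed level of the 10 fibroblast and endothelial genes was 34.1 to 47.6 CPM in siCT and 15.8 to 28.5 CPM in siPDCD4.

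The promoters of these genes were searched for both elements. RefSeq start-site windows (GRCh38.p14, 250 bases before to 50 bases after each start) were at hand for 37 of the 46 genes, 49 windows in all. The ISRE core, searched on both strands as GAAA, 2 bases of any kind and again GAAA, stood in 30 of these windows (61.2%, 95% Wilson interval 47.2% to 73.6%), against 3.57% of all 35116 windows. Some windows overlap and hold the same match, as within IFI27, within IFI44, and between PARP9 and DTX3L. The windows are thus not independent, and the interval is too narrow. A longer form, the core followed by CT, stood in 40.8% against 0.273%. The GAS core, searched as TTCNNNGAA, stood in 26.5% against 7.66%. In windows of BST2, EPSTI1, IFI27, IFITM1 and MX1 a GAS match shared bases with an ISRE match. The GAS share is therefore not a count separate from the ISRE share. By gene, 26 of the 37 had the ISRE core in at least 1 window, against 4.38% of all 27305 genes. A match describes the letters in the window and does not show binding in these cells.

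Stretches of 60 bases before the start site are shown for 5 genes whose level was low or varied between libraries and for 3 that were higher and steadier. Each is written 5′ to 3′ in the direction of the gene, and capitals mark the matches to the ISRE core, which reads as a pair of TTTC where the match lies on the other strand.
IFIT1, chr10:89392495-89392554, plus strand: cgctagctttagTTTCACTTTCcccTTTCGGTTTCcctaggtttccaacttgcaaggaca
IFIT3, chr10:89332453-89332512, plus strand: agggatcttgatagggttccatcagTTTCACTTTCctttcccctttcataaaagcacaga
IFI6, chr1:27672251-27672310, minus strand: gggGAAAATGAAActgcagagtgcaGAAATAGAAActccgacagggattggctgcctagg
ISG15, chr1:1013365-1013424, plus strand: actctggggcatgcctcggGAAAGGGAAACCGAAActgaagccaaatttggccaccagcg
IFITM1, chr11:313975-314034, plus strand: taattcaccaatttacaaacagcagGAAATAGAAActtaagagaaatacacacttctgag
B2M, chr15:44711354-44711413, plus strand: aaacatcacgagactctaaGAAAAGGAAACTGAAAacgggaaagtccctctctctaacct
IFITM3, chr11:320861-320920, minus strand: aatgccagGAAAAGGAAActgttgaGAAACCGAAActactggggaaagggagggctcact
SAMD9, chr7:93118081-93118140, minus strand: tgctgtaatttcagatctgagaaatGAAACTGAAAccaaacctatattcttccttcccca
Only stretches that hold the core are shown, so they cannot tell how the core relates to level. Levels were also taken in TPM, a scale that accounts for transcript length. The median siCT level was 2.72 TPM in the 26 genes with the core and 3.36 TPM in the 11 without it. Of the 37 genes, 23 with the core were tested and 19 of them had a log2 fold change above 0, with a median of 0.19. Of the genes without the core 10 were tested and 8 were above 0, with a median of 0.16. Over all tested genes 48.7% were above 0. siPDCD4 replicate 3 was the highest library in 19 of the 23 genes with the core and 5 of the 10 without it. Over all tested genes it was the highest in 17.1%. The difference between genes with and without the core was not tested.

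Interferon RNA was near or below detection. Of 21 interferon genes, 20, including IFNB1, IFNG and every interferon alpha gene listed, had no count in any library, which allows up to 3 counts in each, or 0.137 to 0.224 CPM. IFNE, an interferon of epithelia, was found between 0.187 and 0.323 CPM and was too low to test. The receiving side was present. Between libraries IFNAR1 ranged from 30.0 to 46.8 CPM and JAK1 from 111 to 158 CPM. None of the 9 genes for receptors and JAK kinases passed an FDR of 5%, with 4 above and 5 below 0. Of 14 tested sensors and adaptors none passed, and 10 were above 0, where 48.7% of all tested genes were. The 3 with the smallest p were TLR3, an endosomal receptor of double-stranded RNA (log2 fold change -0.33 ± 0.13, adjusted p = 0.499, edgeR), the transcription factor IRF5 (0.42 ± 0.17, adjusted p = 0.503) and the DNA sensor CGAS (0.25 ± 0.10, adjusted p = 0.516).

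The 46 genes differed widely in level, compared here in TPM, a scale per library that also accounts for transcript length. B2M, the light chain of MHC class I molecules, was the highest with 448 ± 28.6 TPM in siCT (SD, n = 3), followed by IFITM3 with 340 ± 46 and IFITM2 with 172 ± 16.3, membrane proteins that block the entry of viruses. These 3 genes held between 80.3% and 84.0% of the summed TPM of all 46. BST2, which tethers budding virus particles, followed at 26.5 ± 1.39 TPM, then the GTPase GBP1 at 22.6 ± 0.498, the antiviral TRIM protein TRIM22 at 18.5 ± 1.97 and IFIT5 at 16.1 ± 0.713. TRIM22 and IFIT5 overlapped within 1 SD, as did STAT2 (9.99 ± 1.11), PARP14 (9.93 ± 1.32) and TAP1 (9.46 ± 0.811). In all, 7 genes had a siCT mean of at least 10 TPM and 32 of at least 1 TPM, and 14 lay below 1 TPM. IFIT1, a textbook reporter of the interferon response, was among the lowest at 0.211 ± 0.0219 TPM.

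**Figure D1:**
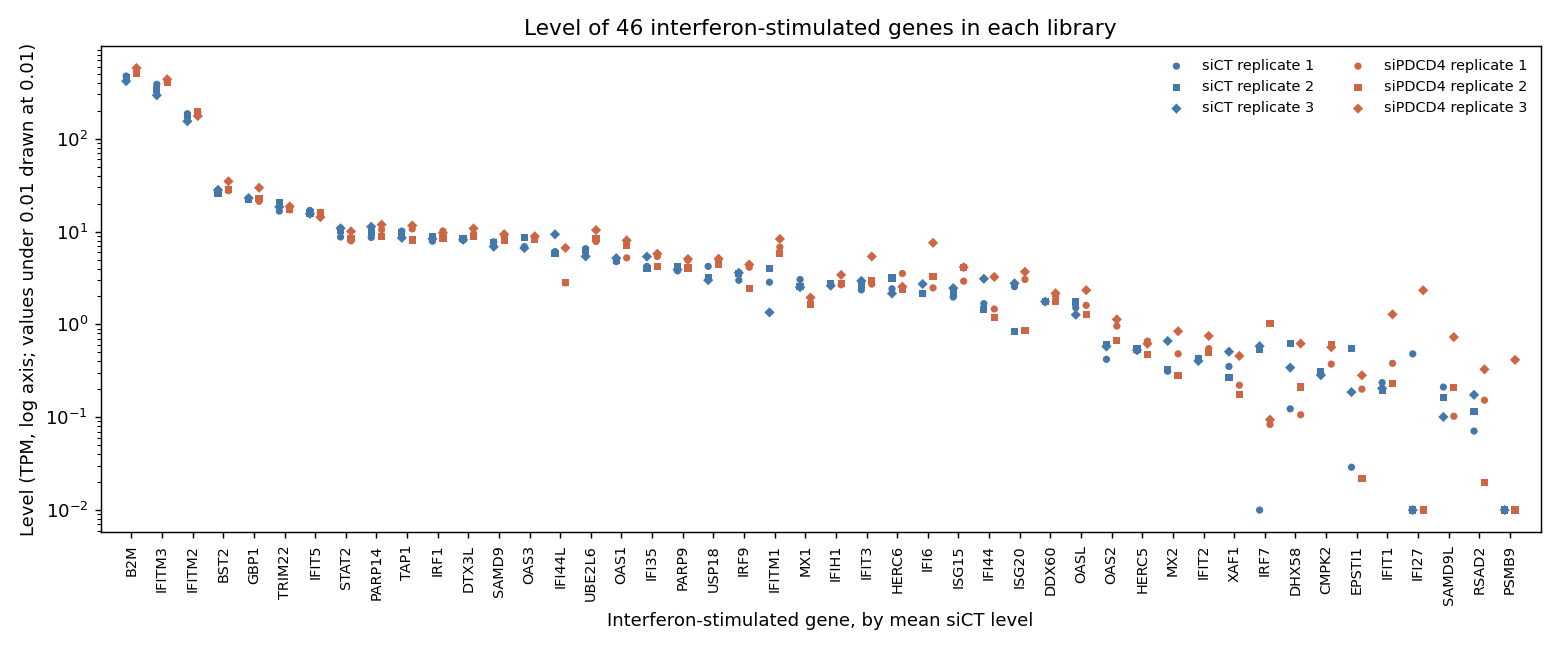
Level of the 46 genes in each of the 6 libraries in TPM on a log axis, ordered by their mean in siCT. Circles, squares and diamonds are replicates 1, 2 and 3, and values under 0.01 TPM are drawn at 0.01. B2M, IFITM3 and IFITM2 stand above 100 TPM in every library, and the spread between libraries widens among the genes below 1 TPM.

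No interferon-stimulated gene passed an FDR of 5% between siPDCD4 and siCT in edgeR, where 0.429% of all tested genes did. DESeq2 gave an adjusted p for 44 of the genes and called none of them, against 1.28% of 14051 genes. At an unadjusted p below 0.05 there were 11 of 42 (26.2%), 10 higher and 1 lower in siPDCD4, where 8.62% of all tested genes were. Of the 42 genes 34 had a log2 fold change above 0 (81.0%, against 48.7% of all genes), with a median of 0.18 against -0.0055 over all genes. The 3 siPDCD4 libraries lay above the 3 siCT libraries in 11 genes (26.2%, against 6.81% of all genes) and below them in 1 gene, MX1 (2.38%, against 7.14%). These counts do not come from 42 independent observations, because the genes were measured in the same 6 libraries and share regulators. The list was also chosen with earlier results of these data known, which may have shaped its shares. The median SE of a log2 fold change was 0.21 for these genes and 0.14 over all tested genes, with median levels of 8.23 and 25.2 CPM.

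These counts moved with single libraries, and most with siPDCD4 replicate 3. That library held the highest value of all 6 libraries in 30 of the 42 genes (71.4%), against 17.1% of all tested genes. Its median deviation from the mean of the 6 libraries was 0.30 on the log2 scale, against -0.0055 over all genes. siPDCD4 replicates 1 and 2 had medians of 0.053 and -0.049. Without siPDCD4 replicate 3, 25 of the 42 genes were above 0 (59.5%, against 50.9% of all genes), the median was 0.087, and 4 had an unadjusted p below 0.05 (9.52%, against 8.65%). That last count was also 4 without siCT replicate 2 (9.52%, against 6.63%), and 6 without siCT replicate 1 or siCT replicate 3 (14.3%, against 7.94% and 11.1%). Without siCT replicate 3, the library that stood apart over all genes, 35 of the 42 genes were above 0 and the median was 0.19. The 9 genes that were above 0 in all libraries and below 0 without siPDCD4 replicate 3 were GBP1, IFIH1, IRF9, ISG20, MX2, OASL, PARP14, SAMD9L and TAP1. None of the 10 mammary epithelial markers was highest in siPDCD4 replicate 3, and their summed level was the lowest there, at 5201 CPM against 5768 to 6370 CPM elsewhere. Its total (16824687) and its share of counts in protein-coding genes (80.7%) lay within the range of the other libraries. The summed level of the 12 leukocyte markers was highest in this library, at 16.9 CPM against 11.1 to 16.05 CPM elsewhere, with CD14 at 12.4 CPM there and 12.2 CPM in siPDCD4 replicate 2. The endothelial gene PECAM1 was highest there, at 4.28 CPM against 0.987 to 2.01 CPM elsewhere, while the endothelial cadherin CDH5 did not exceed 0.0483 CPM in any library. The part of these markers in the pattern was not tested. In RNA from whole cultures, more RNA in every cell and a few strongly responding cells cannot be told apart.

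**Figure D2:**
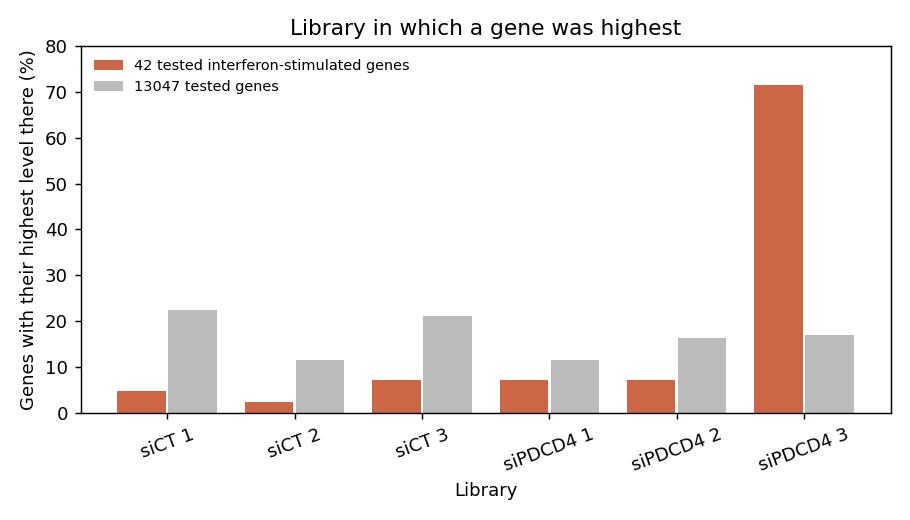
Share of genes whose highest level of the 6 libraries fell in each library, for the 42 tested interferon-stimulated genes and for all 13047 tested genes. siPDCD4 replicate 3 takes 71.4% of the interferon-stimulated genes and 17.1% of all genes.

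**Figure D3:**
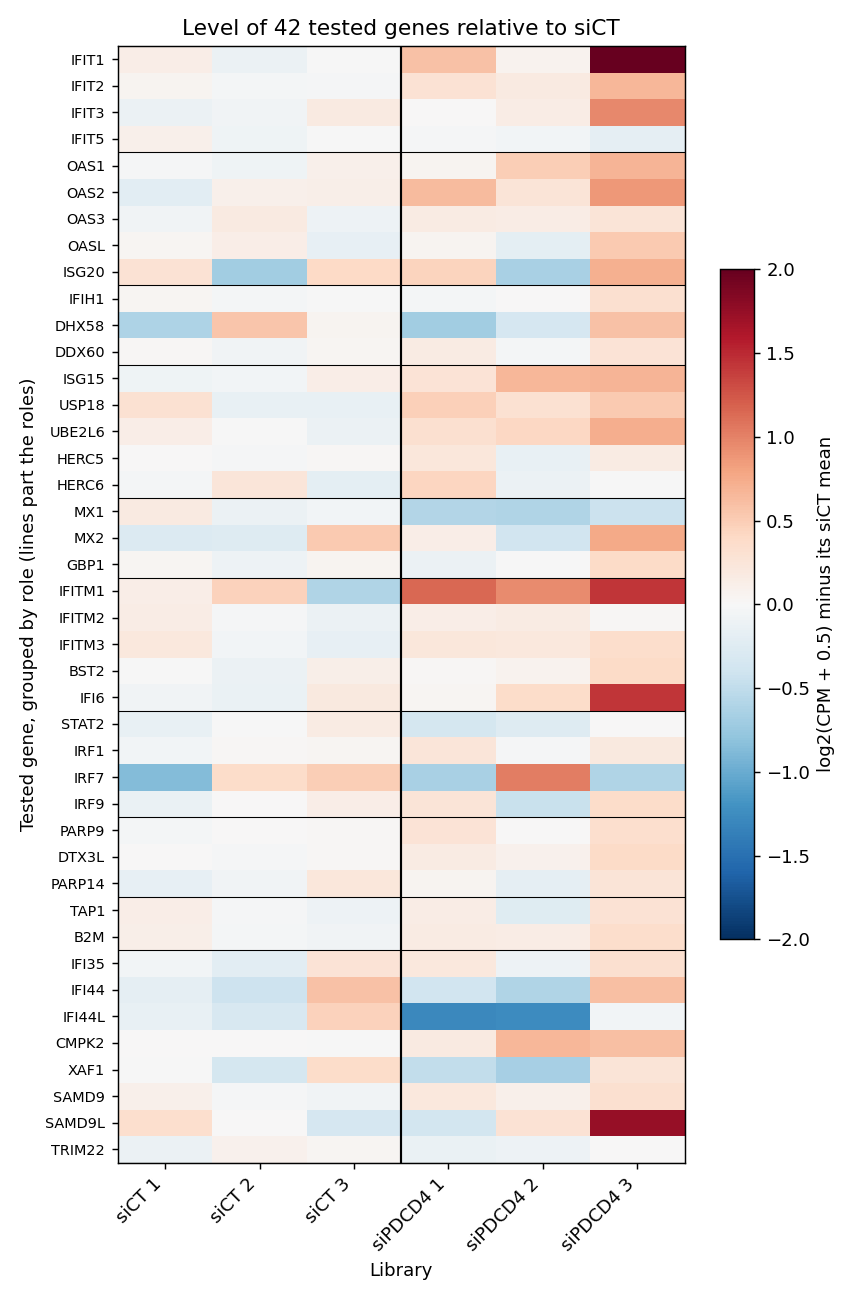
Level of the 42 tested genes in each library, as log2(CPM + 0.5) minus the mean of the 3 siCT libraries, with colours capped at -2 and 2 and genes grouped by role. The column of siPDCD4 replicate 3 is the reddest, IFITM1 is red in all 3 siPDCD4 libraries, and MX1 is blue in all 3. The level of MX1 depends on the length offset.

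The IFIT proteins bind viral RNA that lacks the marks of cellular mRNA, and their 4 genes lie side by side on chromosome 10. IFIT1 (89392546 to 89406487) stood at 1.11, 0.858 and 0.972 CPM in siCT replicates 1 to 3 and at 1.72, 1.05 and 5.90 CPM in siPDCD4 replicates 1 to 3. The groups overlapped, and siPDCD4 replicate 3 was 4.25 times the mean of the other two siPDCD4 libraries. Its log2 fold change of 1.55 ± 0.59 (adjusted p = 0.468) fell to 0.51 without that library. Between 12 and 95 reads in a library lay behind these values. IFIT2 (89283694 to 89309271) had 1.64, 1.51 and 1.54 CPM in siCT and 2.01, 1.84 and 2.79 CPM in siPDCD4. IFIT3 (89327307 to 89377473) had 5.87, 6.14 and 7.37 CPM in siCT against 6.45, 7.16 and 13.1 CPM in siPDCD4. siPDCD4 replicate 3 was again the highest for both, and their log2 fold changes of 0.49 ± 0.30 and 0.47 ± 0.27 had adjusted p of 0.756 and 0.731, and were 0.31 and 0.087 without that library. IFIT5, the most abundant of the family, did not share this order, with 38.2, 37.7 and 34.5 CPM in siPDCD4 and its lowest value in replicate 3.

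The OAS enzymes make the second messenger that activates RNase L, and OAS1, OAS3 and OAS2 are neighbours on chromosome 12. OAS1 (112905856 to 112933219) was found at 12, 11.4 and 13.2 CPM in siCT and at 12.6, 17.3 and 19.8 CPM in siPDCD4. OAS2 (112978395 to 113011723) was found at 1.08, 1.46 and 1.49 CPM in siCT and at 2.35, 1.69 and 2.84 CPM in siPDCD4. The groups overlapped for OAS1, where siPDCD4 replicate 1 lay within siCT, and did not for OAS2. The log2 fold changes were 0.44 ± 0.17 for OAS1 (adjusted p = 0.493) and 0.79 ± 0.32 for OAS2 (adjusted p = 0.503). For OAS1 the value was 0.21 without the length offset and 0.72 on protein-coding transcripts only. OAS3, OASL and the RNA exonuclease gene ISG20 ranged from 0.18 to 0.30 in log2 fold change. All 5 genes of this group were highest in siPDCD4 replicate 3 in CPM, ISG20 on 10 to 27.4 reads in a library.

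ISG15 is a ubiquitin-like modifier, UBE2L6 its conjugating enzyme, HERC5 its ligase and USP18 the protease that removes it. ISG15 (chromosome 1, 1001138 to 1014540) was low at 1.03, 1.07 and 1.29 CPM in siCT and stood at 1.46, 2.08 and 2.10 CPM in siPDCD4. UBE2L6 (chromosome 11, 57551656 to 57568284) stood at 7.62, 6.83 and 6.32 CPM in siCT and at 8.72, 9.39 and 11.8 CPM in siPDCD4. USP18 (chromosome 22, 18150118 to 18177397) stood at 8.20, 5.85 and 5.84 CPM in siCT and at 9.34, 8.23 and 9.63 CPM in siPDCD4. The groups did not overlap in any of the 3 genes. Their log2 fold changes were 0.74 ± 0.32, 0.52 ± 0.18 and 0.44 ± 0.19, with adjusted p of 0.540, 0.381 and 0.538. Without siPDCD4 replicate 3 they were 0.66, 0.39 and 0.41. HERC5 and HERC6 had log2 fold changes of 0.12 and 0.11.

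MX1 and MX2 are dynamin-like GTPases that trap viral nucleocapsids. MX1 (chromosome 21, 41420020 to 41470071) stood at 3.84, 3.03 and 3.18 CPM in siCT and at 2.04, 2.02 and 2.36 CPM in siPDCD4. In these CPM, which include the length offset, it was the one gene of the 42 with all siPDCD4 libraries below all siCT libraries. The log2 fold change was -0.65 ± 0.26 (adjusted p = 0.490). Its reads were 53.9, 43.0 and 44.9 in siCT and 44.4, 35.6 and 40.5 in siPDCD4. Transcripts that code for the protein held 9.35% of its reads in siCT and 28.4% in siPDCD4, and the transcript with the most reads has a retained intron. Reads assigned to coding transcripts were thus more numerous in siPDCD4, against the direction of the gene level. Without the offset for transcript length the log2 fold change was -0.21. The value and the separation of the groups therefore depend on how the reads were shared among its 48 transcripts. No read of MX2 was assigned to a coding transcript. GBP1 had a log2 fold change of 0.10 ± 0.13.

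IFITM1 had the smallest p of the 42. It is the cell-surface member of the IFITM family and lies between IFITM2 and IFITM3 on chromosome 11 (310041 to 315272). It stood at 1.63, 2.17 and 0.778 CPM in siCT replicates 1 to 3 and at 3.78, 3.22 and 4.72 CPM in siPDCD4 replicates 1 to 3. All siPDCD4 libraries lay above all siCT libraries, and the log2 fold change was 1.35 ± 0.36 (adjusted p = 0.212, edgeR). It remained between 1.06 and 1.65 when any library was left out. Without the length offset it was 1.41 with an adjusted p of 0.0411. IFITM3 (319676 to 329475) stood at 160, 133 and 123 CPM in siCT and at 161, 160 and 177 CPM in siPDCD4. The groups barely parted, at 0.26 ± 0.11 on the log2 scale (adjusted p = 0.503). The 3 IFITM genes are close paralogs, and how Salmon split reads between them is uncertain.

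IFI6 and IFI27 encode small hydrophobic proteins that are strongly induced by interferon in many cells. IFI6 (chromosome 1, 27666064 to 27672212) stood at 1.53, 1.45 and 1.95 CPM in siCT and at 1.69, 2.26 and 5.26 CPM in siPDCD4. siPDCD4 replicate 3 was 2.66 times the mean of the other two, and the log2 fold change of 0.91 ± 0.42 (adjusted p = 0.591) was 0.28 without it. IFI27 (chromosome 14, 94104836 to 94116695) was at 0 in siCT replicates 2 and 3 and in siPDCD4 replicates 1 and 2, and at 0.0969 CPM in siCT replicate 1 and 0.431 CPM in siPDCD4 replicate 3. PSMB9, a subunit of the immunoproteasome, had counts in siPDCD4 replicate 3 alone, at 0.371 CPM. RSAD2, the antiviral enzyme viperin, was highest in siPDCD4 replicate 3 as well, at 1.16 CPM. EPSTI1 was not, with 0.415 CPM there and 0.777 CPM in siCT replicate 2. These 4 genes were too low to test. PSMB9 overlaps TAP1, and RSAD2 overlaps CMPK2, on opposite strands, so the origin of their few reads is uncertain.

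**Figure D4:**
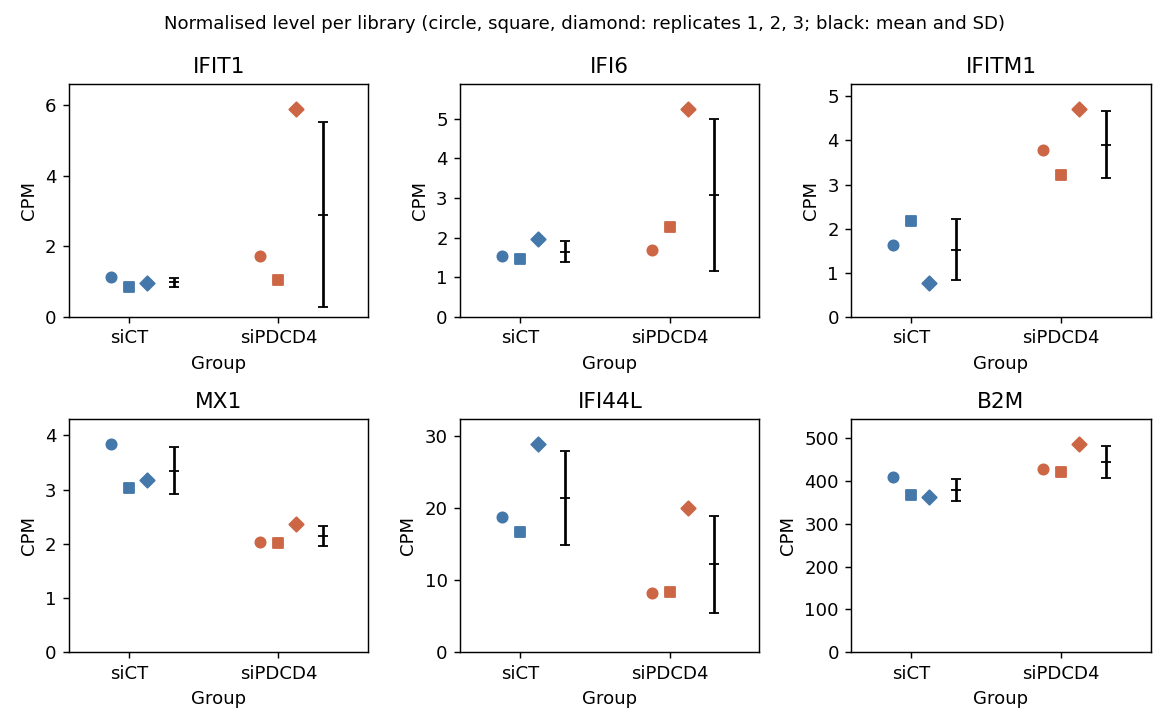
Normalised level in CPM of 6 genes in each library, with black marks for the group mean and its SD, and every axis starting at 0. For IFIT1 and IFI6 siPDCD4 replicate 3 (diamond) stands alone, for IFITM1 and MX1 the groups part, and for IFI44L replicate 3 is the highest of each group. The parting of MX1 depends on the length offset.

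Of the 4 transcription factors in the list none passed the threshold. STAT2 (chromosome 12, 56341597 to 56360203) stood at 39.2, 43.6 and 48.8 CPM in siCT and at 34.1, 36.6 and 43.8 CPM in siPDCD4, with a log2 fold change of -0.20 ± 0.13 (adjusted p = 0.785). IRF9 (chromosome 14, 24161234 to 24168043) stood at 7.02, 7.72 and 8.46 CPM in siCT and at 9.27, 5.52 and 10.1 CPM in siPDCD4, with 0.10 ± 0.23, which became -0.054 without siPDCD4 replicate 3. IRF1 (chromosome 5, 132440440 to 132508719), a target of interferon gamma and itself a factor, stood at 17.8, 18.7 and 18.9 CPM in siCT and at 21.9, 18.2 and 21.2 CPM in siPDCD4, with 0.15 ± 0.12. The groups overlapped in each. IRF7, an amplifier of the response, ranged from 0 to 0.781 CPM in siCT and up to 1.34 CPM in siPDCD4, with a log2 fold change of 0.31 ± 1.14.

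B2M and SAMD9 showed small differences with little spread. B2M (chromosome 15, 44711358 to 44718851) stood at 409, 367 and 362 CPM in siCT and at 427, 420 and 486 CPM in siPDCD4, with a log2 fold change of 0.23 ± 0.09 (adjusted p = 0.492). SAMD9 (chromosome 7, 93099513 to 93118023), a restriction factor of poxviruses, stood at 54.6, 50.2 and 48.5 CPM in siCT and at 59.4, 55.0 and 64.1 CPM in siPDCD4, with 0.22 ± 0.10 (adjusted p = 0.573). The groups did not overlap in either gene, and the highest siPDCD4 library was again replicate 3. DTX3L and PARP9 form a complex of an E3 ligase and an ADP-ribosyltransferase, and had log2 fold changes of 0.22 ± 0.10 and 0.23 ± 0.14, with DTX3L separated between the groups. The 2 genes overlap by 240 bases on opposite strands, and whether Salmon used strand is not stated. The same limit holds for PSMB9 and TAP1, which overlap by 8608 bases, and for CMPK2 and RSAD2, which overlap by 1079 bases. TAP1, the peptide transporter, had 0.078 ± 0.15.

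In several genes the third replicate was the highest of both groups. Of the 42 genes 11 (26.2%, against 5.80% of all genes) were at least 1.5 times higher in siPDCD4 replicate 3 than in the mean of siPDCD4 replicates 1 and 2. Of these, IFI44, IFI44L, ISG20, MX2 and XAF1 were also at least 1.5 times higher in siCT replicate 3 than in the mean of siCT replicates 1 and 2. IFI44L, named after its values were seen, stood at 18.8, 16.7 and 28.9 CPM in siCT and at 8.28, 8.39 and 20.0 CPM in siPDCD4. Its log2 fold change was -0.80 ± 0.39 (adjusted p = 0.687) and -1.35 without siPDCD4 replicate 3. DHX58, IFI6, IFIT1, IFIT3, OASL and SAMD9L were higher in siPDCD4 replicate 3 without such a difference in siCT. DHX58 rested on 5 to 13 reads in a library. SAMD9L, also named after its values were seen, stood at 1.23, 0.884 and 0.587 CPM in siCT and at 0.570, 1.18 and 4.12 CPM in siPDCD4. siCT replicate 3 was the highest of its group in 22 of the 42 genes (52.4%, against 35.9% of all genes). Whether the third replicates were handled together is not given in the labels.

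**Figure D5:**
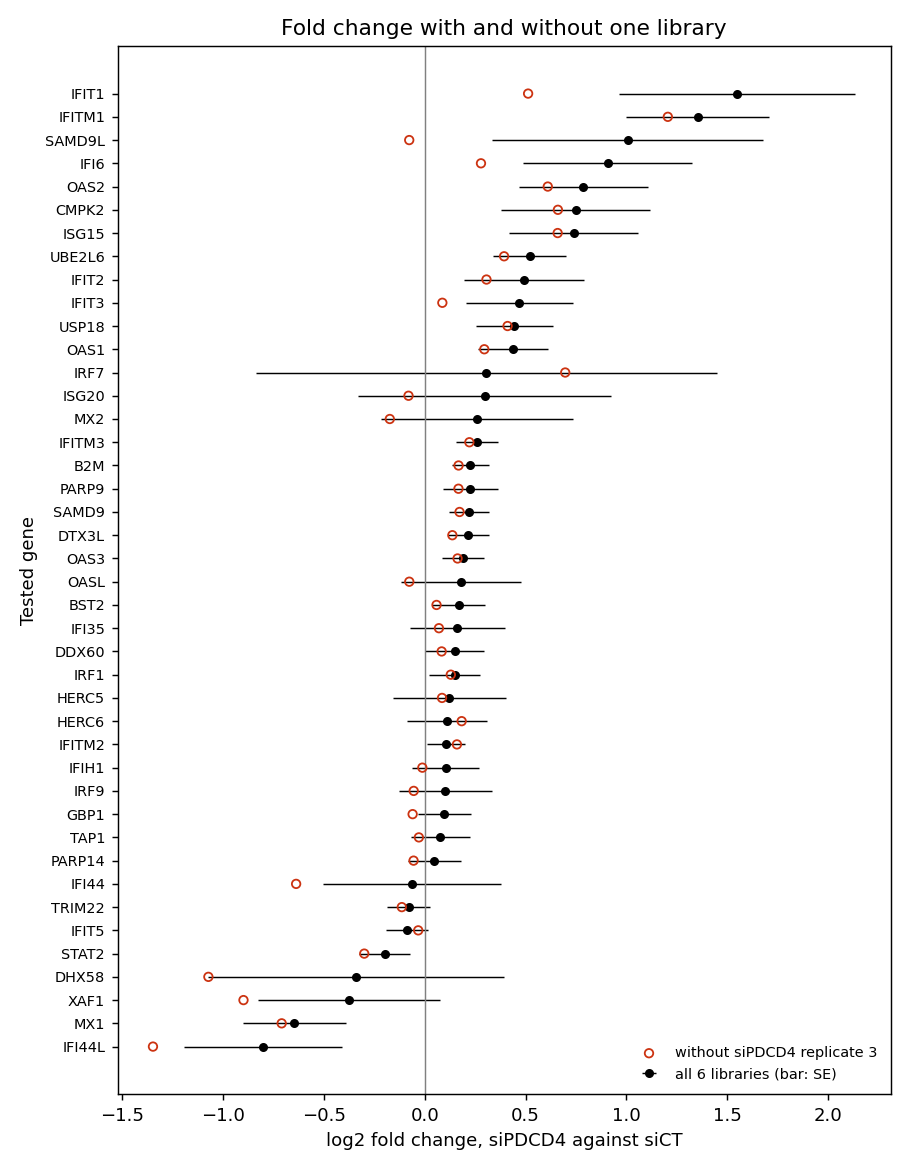
Log2 fold change of the 42 tested genes between siPDCD4 and siCT, with all 6 libraries (black, bars give the SE) and without siPDCD4 replicate 3 (open red). IFIT1, IFI6 and SAMD9L shift furthest left among the genes above 0, while IFITM1, ISG15, OAS2 and USP18 shift less and stay at 0.41 or above. IFIT1, CMPK2 and IRF7 also lie above 0.41 without that library.

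The type of transcript behind a value differed between the genes. In 22 of the 42 tested genes over 90% of the reads were assigned to protein-coding transcripts, and in 7 genes under 50%. For IFIT1, IFI6 and ISG15 the share was 100%. For OAS1 the transcript with the most reads has a retained intron (47.6%), and for OAS2 it is annotated as a target of nonsense-mediated decay (54.7%). For CMPK2, a mitochondrial nucleotide kinase whose groups did not overlap, 86.4% of the reads lay in a transcript with no defined coding sequence. OAS1, OAS2 and CMPK2 were thus measured mostly on RNA that is not annotated to encode the protein.

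None of the further genes of the pathway passed an FDR of 5% either. Of 36 further interferon-stimulated genes 33 were tested. Of the 33, 26 were above 0, with a median log2 fold change of 0.090, and 12 were highest in siPDCD4 replicate 3 (36.4%, against 17.1% of all genes). That last share was similar in other lists of the pathway. It was 33.3% for receptors and JAK kinases, 28.6% for sensors and adaptors, 37.5% for negative regulators and 33.3% for MHC class I and peptide loading. Over all tested genes 48.7% were above 0, which is also the share to set beside the lists below. The direction of these lists was not counted without siPDCD4 replicate 3. GBP2, a guanylate-binding protein named after its values were seen, had the largest log2 fold change of them, 0.86 ± 0.46 (adjusted p = 0.738), and 0.31 without siPDCD4 replicate 3. It stood at 15.6, 11.3 and 24.7 CPM in siCT and at 21.1, 20.6 and 49.96 CPM in siPDCD4, the third replicate being the highest of both groups. The smallest p belonged to the lysosomal thiol reductase IFI30 (0.34 ± 0.11, adjusted p = 0.319), followed by the apolipoprotein L gene APOL6 (0.34 ± 0.12, adjusted p = 0.376) and the surface protein LY6E (0.34 ± 0.14, adjusted p = 0.519). Of 9 tested genes for MHC class I and peptide loading none passed, with HLA-B at 0.31 ± 0.11 (adjusted p = 0.372) and 5 of the 9 above 0. HLA-E was listed at 0 in all 6 libraries, so transcript assignment in the MHC region, which also holds TAP1 and PSMB9, is uncertain. Among 8 tested negative regulators none passed and 4 were above 0, with SOCS3 at 0.79 ± 0.31 (adjusted p = 0.492) and FOXO3 at -0.21 ± 0.09 (adjusted p = 0.544). The chemokine CXCL10, a sensitive target of interferon, did not exceed 0.249 CPM, the one chemokine tested, CCL5, had -0.41 ± 0.30, and CXCL9 was at 0 in all libraries.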

How the data were processed

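The authors prepared stranded total RNA libraries, sequenced them as paired reads of 75 bases, and quantified transcripts with Salmon (version not given in the sources used here) on GRCh38, Ensembl release 109. The deposited estimated counts and TPM were both made by the authors in this step. Of 194142 transcripts, 181244 were matched by identifier to GENCODE release 44 and summed to 34486 genes. The other 12898 held 5.47% to 6.21% of counts. They were not analysed here, nor were PSME1, PSME2 and STING1, which had no match. No lncRNA transcript was matched.

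Rounded gene sums entered edgeR 4.0.16 under R 4.3.3 (robust quasi-likelihood fit, TMM factors, filterByExpr, average transcript length offset, group as the only factor), with Benjamini-Hochberg adjustment over all 13047 tested genes at an FDR of 5%. All adjusted p in the text are from this edgeR test unless another tool is named. CPM were computed with the same factors and offset. The sign ± gives an SE for log2 fold changes and an SD for levels. Intervals and count limits cover counting error only. Alternatives included DESeq2 1.42.0, limma-voom (limma 3.58.1), other factors and filters, and leaving out each library. On simulated data for siPDCD4 against siCT with 200 of 13047 genes changed, edgeR recovered 75% of genes changed by 1 and 94% changed by 2 on the log2 scale, with 12 false calls among 181. The changed genes were drawn from all tested genes, whose median level was 25.2 CPM. The tested interferon-stimulated genes had a median of 8.23 CPM, and recovery at their levels was not measured.

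Members and lists were chosen with earlier results of these data known. Some genes of the further lists are not reported here and were left out of the list counts. Members are given per library if among the 12 smallest p or if they are IFIT1, IFIT2, IFIT3, ISG15, MX1, OAS1, IFI6, IFI27, STAT2, IRF9, IRF1 or B2M, and up to 3 genes are named per further list. Promoter windows came from RefSeq, and figures were drawn with matplotlib 3.10.9.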

Additional observations from a re-analysis of the deposited data

How the results depend on the processing

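The number of all genes past the threshold moved from 56 to 180 with DESeq2, 108 with no low-count filter, 128 with no length offset and 99 at an FDR of 10%, and to between 17 and 40 when 1 library was left out (17, 22 and 30 without siPDCD4 replicate 1, 2 or 3 and 32 without siCT replicate 2). Of the 46 genes, 0 passed in edgeR, DESeq2 and limma-voom, and 1 did without the length offset (IFITM1). The share of windows with the ISRE changed from 61.2% to 40.8% with the longer motif. The log2 fold change of IRF9 lay between -0.054 and 0.33 when 1 library was left out, and was below 0 without siPDCD4 replicate 3. At an unadjusted p below 0.05 there were 11 genes in edgeR and 7 of the 42 in DESeq2, and between 4 and 10 when 1 library was left out (4 without siPDCD4 replicate 3, 4 without siCT replicate 2, 6 without siCT replicate 1 and 6 without siCT replicate 3). In edgeR the count was 12 with RLE factors or without robust fitting. With a replicate block it was 15 (35.7%, against 11.2% of all genes). The median log2 fold change of the tested members ranged from 0.087 to 0.27 when 1 library was left out. Of 270 values under an alternative, for the 17 tested genes named by rule, 268 kept their direction and side of the threshold. The exceptions were IRF9 without siPDCD4 replicate 3 and IFITM1 without the length offset. None of the 17 passed in the main fit, and this count does not take in size. IFIT1 fell from 1.55 to 0.51 without siPDCD4 replicate 3, while IFITM1 lay between 1.06 and 1.65 when 1 library was left out. Among tested genes not named by rule, GBP1, IFIH1, ISG20, MX2, OASL, PARP14, SAMD9L and TAP1 turned below 0 without siPDCD4 replicate 3. For the replicate numbers, deviations of same-numbered libraries correlated at 0.072, 0.12 and 0.18, which does not establish pairing. With a replicate block 102 genes passed, 1 of them interferon-stimulated (IFI44L, adjusted p = 0.0457, edgeR), as did GBP2 of the further genes (adjusted p = 0.048, edgeR), and siPDCD4 replicate 1 correlated best with siCT replicate 2, not with its own number. The causes of these changes were not tested.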
